A study of Mus musculus with 15 samples.

Results

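The 4-h step from circadian time 8 (CT8) to CT12 was examined in ribosome profiling libraries of mouse liver, and its members were the 4 samples that carried these times in their names, 2 mice at CT8 and 2 at CT12, of 14 samples with count files in the series. All animals were wild-type male C57BL/6N mice, 8 to 10 weeks old. They had been kept in cycles of 12 h light and 12 h dark for 2 weeks, then moved to constant darkness, and were killed from 24 h later onward at 7 circadian times 4 h apart, with 2 mice per time. By their labels CT8 and CT12 mice differed in circadian time only. CT8 stands for the later part of the subjective day and CT12 for the start of the subjective night, when mice become active and begin to feed. Whole liver was used, so fewer cells of a type and fewer ribosome footprints per cell cannot be told apart.

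Ribosome profiling sequences the short pieces of mRNA that ribosomes shield from nuclease, and the reads on a transcript therefore follow both the amount of its mRNA and the number of ribosomes on each copy, which cannot be told apart here. Liver gene expression around dusk is shaped by the molecular clock, in which BMAL1 with CLOCK or NPAS2 activates Per, Cry, Nr1d1 and Dbp genes, PER and CRY proteins inhibit that activation, and REV-ERB receptors repress Bmal1 in turn. Glucocorticoids, which rise before activity onset in nocturnal rodents, and feeding signals that act through mTOR complex 1 also change at this time of day. The mRNAs of ribosomal proteins and of several elongation factors carry a pyrimidine tract at their 5′ end, through which their translation is set as a group.

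The authors deposited raw read counts in the 5′UTR, coding sequence (CDS) and 3′UTR of 28167 RefSeq transcripts, which were added here. The total counts were 87480771 and 82597296 at CT8 and 90458783 and 78144403 at CT12, against 40593197 to 60931280 in the other samples. Levels are given as CPM (a transcript's counts relative to the counts of its library) after TMM scaling, which corrects for differences in library composition. The major urinary protein (Mup) family took 62.8% and 68.6% of counts at CT8 and 60.7% and 70.7% at CT12. CT12 replicate 1 had 6.32% of its reads in 5′UTRs, against 8.28% to 8.63% in the other 3 samples of the step. All 10 hepatocyte marker genes were measured and none passed in edgeR (2 at an unadjusted p under 0.05), while DESeq2 called 1. Their summed level was 39789.6 and 41359 CPM at CT8 and 49222 and 37689 CPM at CT12. No measured marker of the other cell types passed in edgeR or DESeq2. The sums overlapped between the times for Kupffer cells and sinusoidal endothelium, the stellate cell and fibroblast sum was 182 and 201 CPM at CT8 and 165 and 153 CPM at CT12 without overlap, and of 7 lymphocyte markers 2 and 0 were at 0 counts in the CT8 samples and 7 and 6 in the CT12 samples. The sum over 12 pancreatic acinar markers was 0.463 and 6.42 CPM at CT8 and 0.666 and 33.6 CPM at CT12, so that both replicate 2 samples stood above both replicate 1 samples, with 9 and 1 of 13 such markers at 0 counts at each time, and it was 3770 CPM in CT20 replicate 2. The part of these markers in the results was not tested. All nonzero counts of CT16 replicate 2 were even numbers, so they may be doubled, which was not tested. This sample enters the estimate of spread, and without it the step described next gave 274 calls in place of 296, of which 261 were shared.

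Of 17299 transcripts that averaged 10 or more counts over the 14 samples, 296 (1.71%) passed an adjusted p of 0.05 in edgeR's quasi-likelihood test of the step, with 186 (1.08%) higher and 110 (0.636%) lower at CT12. Counted in the same fit with 1 transcript per gene, 196 of 11655 genes (1.68%) passed, of which 129 (1.11%) rose and 67 (0.575%) fell. Of the 129 genes that rose, 58 are on the list of cytosolic ribosomal proteins, 7 on that of translation factors and 64 on neither. A rise of at least 2-fold was seen in 106 of them and of at least 4-fold in 15, and 48 of the 67 genes that fell did so by at least 2-fold and 4 by at least 4-fold. The median log2 change over all transcripts was -0.01. Scaling by the total count alone gave 85 calls, of which 64 (75.3%, against 62.8%) were higher, and DESeq2 gave 515. Leaving out CT8 replicate 1 gave 61 calls, CT8 replicate 2 gave 120, CT12 replicate 1 gave 54 and CT12 replicate 2 gave 548.

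Most genes of the cytosolic ribosomal proteins rose. All 77 genes of the list were measured, and 58 (75.3%) rose, none fell and 19 did not pass, against 1.11% of all genes higher. The median log2 change was 1.16, with a range from 0.42 to 2.19, beside a median of -0.0043 over all genes. In all 77 the samples of CT12 lay above those of CT8, a separation in either direction that 38.1% of all genes had. Rpl37a, a protein of the large subunit, had 4.45 and 4.60 CPM at CT8 and 20.7 and 12.9 CPM at CT12 (log2 change 1.89 ± 0.24 SE, edgeR adjusted p = 0.00036), and Rps21 of the small subunit had 17.0 and 18.1 CPM at CT8 and 61.8 and 41.2 CPM at CT12 (log2 change 1.56 ± 0.21 SE, edgeR adjusted p = 0.000788). Rps18 rose from 6.10 and 5.60 CPM to 27.1 and 19.1 CPM (log2 change 1.98 ± 0.27 SE, edgeR adjusted p = 0.000799). Rpl32 (log2 change 1.42, edgeR adjusted p = 0.00151) and Rps4x (1.37, edgeR adjusted p = 0.00181) rose too, and Rpl39, with the largest log2 change of the list, went from 1.95 and 2.96 CPM to 12.5 and 9.86 CPM (log2 change 2.19 ± 0.49 SE, edgeR adjusted p = 0.0276).

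Summed over the 77 genes, footprints were 851 and 926 CPM at CT8 and 2299 and 1702 CPM at CT12. In the other 10 samples the sum ran from 800.1 CPM at CT4 to 2372 CPM at CT16. The sums at CT4 were 914 and 800.1 CPM and those at CT16 were 1911 and 2372 CPM. At CT0 they were 1783 and 1675 CPM, at CT20 1270.04 and 1560.4 CPM and at CT24 1359 and 1593 CPM, so that all samples of the other 5 times stood above those of CT4 and CT8, and CT0 replicate 1 stood above CT12 replicate 2. From CT0 to CT4 the median log2 change was -1.01 and 29 of the 77 passed, against 54 of 11655 genes in all. The median log2 change of the list was 0.03 from CT4 to CT8 and 0.08 from CT12 to CT16, and none of the 77 passed in edgeR in either step, which share samples with the step from CT8 to CT12. In CT12, replicate 1 was above replicate 2 for 72 of the 77 genes. Without CT8 replicate 1 the count of genes called higher was 9, without CT8 replicate 2 it was 25 and without CT12 replicate 1 it was 9, while the median log2 change stayed between 0.99 and 1.33. Scaling by total count gave 22. Many ribosomal protein genes have processed pseudogenes that share their sequence. Only reads with a single place in the genome were counted by the authors, so reads that fit such a copy equally well are missing from these levels, and 4 of the 77 had counts identical to those of another transcript.

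**Figure D1:**
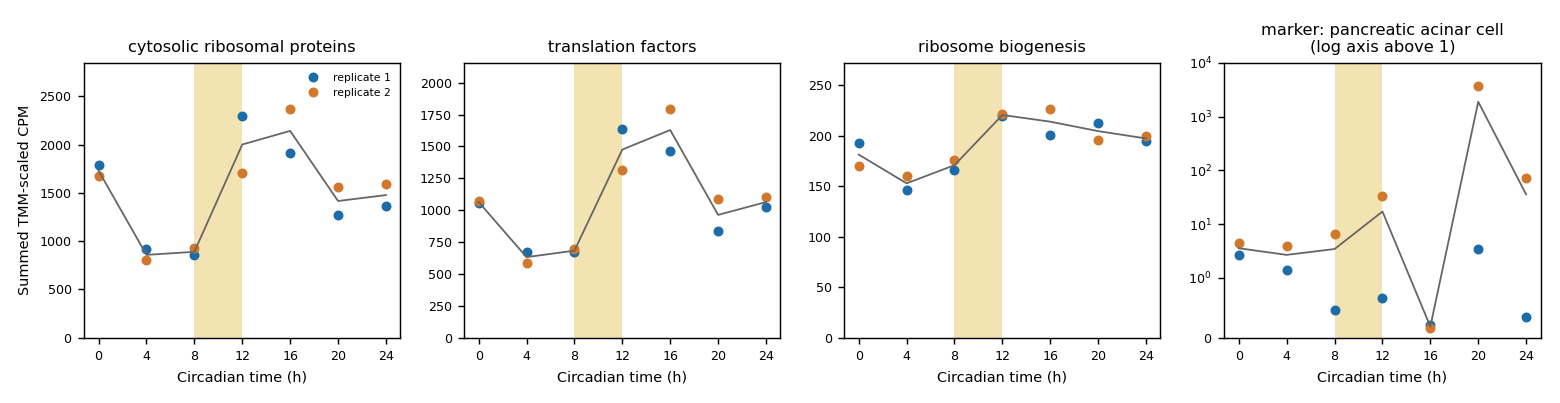
Summed TMM-scaled CPM of the genes of each list (vertical axes, the last one logarithmic above 1) against circadian time in h, with points for replicate 1 and replicate 2, lines for the mean of both and the step from CT8 to CT12 shaded. Ribosomal proteins and translation factors stood low at CT4 and CT8 and high at CT12 and CT16, while the pancreatic acinar markers reached 3770 CPM in a single CT20 sample.

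The starts of the transcripts were read from the genome (GRCm38.p6, RefSeq starts) to show the sequence that this group is known for. A run of at least 8 pyrimidines (C or T) was searched on the transcript's strand in the 25 bases from 10 before to 15 from the start on. It was present in 20 of 65 ribosomal protein genes with a matching transcript model (30.8%), in 3 of the 7 translation factors that rose, in 0 of 9 translation factors that did not pass, and in 876 of 9325 genes in all (9.39%). Among genes of neither list, 5 of 54 that rose had it (9.26%), against 9.23% of all such genes, and Rack1, a protein of the small subunit (log2 change 1.45, edgeR adjusted p = 0.000289), and Eif3f, an initiation factor subunit (1.14, edgeR adjusted p = 0.00538), were 2 of these 5. The window and length were chosen with the results known, and an annotated start can lie some bases from the one used in liver. The sequences below are shown 5′ to 3′ for 3 genes with the run, in capitals, and 2 without it.
Rpl32: ccgCCTCTTCCTTCTTCCTCggcgc
Eef1a1: ctccgCCCTCTTCCCgagggtgggg
Pabpc1: ggcggtgCTTCCCCTTCTCCCCggc
Rpl37a: ctcgccggtctaaaaccgcgcatgc
Eef2: aaggccgggcgttgacgtcagcggt
They lie at chr6:115808729-115808753 (Rpl32, minus strand), chr9:78481710-78481734 (Eef1a1, minus strand), chr15:36608959-36608983 (Pabpc1, minus strand), chr1:72711250-72711274 (Rpl37a, plus strand) and chr10:81176621-81176645 (Eef2, plus strand). Rpl37a and Eef2, which lack the run around the annotated start, also rose. Of the 65 ribosomal protein genes 49 rose while 20 held the run, and those with and without it were not compared.

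Translation factors rose in part. Of 18 measured, 7 (38.9%, against 1.11% of all genes) rose, none fell and 11 did not pass. The elongation factors were among them. Eef2, which moves the ribosome along the mRNA (chr10:81176631-81182509), had 84.7 and 97.5 CPM at CT8 and 378 and 332 CPM at CT12 (log2 change 1.96 ± 0.22 SE, edgeR adjusted p = 0.000195), and Eef1a1, which brings aminoacyl-tRNA to the ribosome, had 120.1 and 131 CPM at CT8 and 636 and 379 CPM at CT12 (log2 change 2.02 ± 0.28 SE, edgeR adjusted p = 0.000921). Eef1b2, its exchange factor, rose from 11.3 and 11.8 CPM to 42.2 and 30.7 CPM (log2 change 1.66 ± 0.24 SE, edgeR adjusted p = 0.00122). Pabpc1, the poly(A)-binding protein, had 18.7 and 18.7 CPM at CT8 and 47.7 and 59.6 CPM at CT12 (log2 change 1.52 ± 0.22 SE, edgeR adjusted p = 0.00151), and Eif4b, a cofactor of the initiation helicase, had 15.1 and 12.9 CPM at CT8 and 31.1 and 27.0 CPM at CT12 (log2 change 1.05 ± 0.21 SE, edgeR adjusted p = 0.0151). Eif4ebp3, an inhibitor of the cap-binding protein eIF4E, rose from 14.8 and 6.33 CPM to 54.5 and 36.2 CPM (log2 change 2.098 ± 0.38 SE, edgeR adjusted p = 0.00743). The 11 that did not pass, most of them initiation factors and their regulators, had log2 changes between -0.33 for Eif5 and 0.35 for Eif3a. Without CT8 replicate 2 or without CT12 replicate 1, 4 members of the list passed. Of 20 ribosome biogenesis factors, Npm1, a nucleolar chaperone, alone rose (8.81 and 8.71 CPM at CT8 and 19.5 and 17.1 CPM at CT12, log2 change 1.06 ± 0.22 SE, edgeR adjusted p = 0.0169), and 18 of the 20 had a positive change with a median of 0.31.

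The 12 genes with the largest rise among well-counted genes (a mean of at least 100 counts) were led by Lpin1, a phosphatidate phosphatase of triglyceride synthesis that also acts as a coactivator in the nucleus (chr12:16535669-16653903). Lpin1 had 21.4 and 25.3 CPM at CT8 and 205 and 177 CPM at CT12, an 8.18-fold rise (log2 change 3.03 ± 0.20 SE, edgeR adjusted p = 2.69e-07). Alas1, the first enzyme of heme synthesis (chr9:106233455-106247954), had 89.4 and 118 CPM at CT8 and 742 and 728 CPM at CT12 (log2 change 2.83 ± 0.30 SE, edgeR adjusted p = 0.000147). Mfsd2a, a transporter of lysophospholipids, went from 2.38 and 3.35 CPM to 20.8 and 17.0 CPM (log2 change 2.73 ± 0.46 SE, edgeR adjusted p = 0.00477). Onecut1, a hepatocyte transcription factor, had 3.03 and 3.70 CPM at CT8 and 15.2 and 27.6 CPM at CT12 (edgeR adjusted p = 0.0168), and Aacs, which activates acetoacetate for lipid synthesis, had 13.8 and 10.7 CPM at CT8 and 72.5 and 53.2 CPM at CT12 (edgeR adjusted p = 0.000195). Lonrf1 rose from 1.10 and 0.980 CPM to 6.65 and 6.21 CPM (log2 change 2.62 ± 0.32 SE, edgeR adjusted p = 0.000289) and Nrep from 1.43 and 1.42 CPM to 7.65 and 8.52 CPM (log2 change 2.50 ± 0.39 SE, edgeR adjusted p = 0.00276). Socs2, an inhibitor of growth hormone signalling, had 0.613 and 0.522 CPM at CT8 and 2.25 and 3.84 CPM at CT12 (edgeR adjusted p = 0.0331). The CT8 and CT12 samples of all 12 were apart, as the rule required, and Lpin1, Alas1, Lonrf1, Aacs and Noct passed in each of the 17 other fits, whereas the adjusted p of Socs2, Onecut1 and Rpl39 reached 0.233, 0.202 and 0.306 over those fits.

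Among the 12 largest falls, Nav2, which guides the cytoskeleton (chr7:48959063-49610090), had 15.3 and 11.0 CPM at CT8 and 3.27 and 3.86 CPM at CT12 (log2 change -1.89 ± 0.21 SE, edgeR adjusted p = 0.000195), and Cldn1, a tight junction protein (chr16:26356645-26371839), had 17.8 and 18.3 CPM at CT8 and 7.05 and 4.28 CPM at CT12 (log2 change -1.67 ± 0.20 SE, edgeR adjusted p = 0.000289). These were the 2 of the 12 that passed in each of the 17 other fits. Foxq1, a forkhead transcription factor, had 8.78 and 6.34 CPM at CT8 and 0.815 and 1.43 CPM at CT12 (edgeR adjusted p = 0.0463). Smad3, the signal carrier of TGF-beta, went from 5.25 and 2.93 CPM to 1.41 and 0.974 CPM (log2 change -1.77 ± 0.39 SE, edgeR adjusted p = 0.0248). Nab2, a corepressor of EGR factors, had 3.74 and 3.16 CPM at CT8 and 0.605 and 1.60 CPM at CT12, and Elk3, an ETS factor, had 2.83 and 2.31 CPM at CT8 and 1.07 and 0.748 CPM at CT12. Both fell (edgeR adjusted p = 0.0455 and edgeR adjusted p = 0.0168). Plxna2, a semaphorin receptor, went from 6.74 and 7.46 CPM to 1.89 and 3.11 CPM (log2 change -1.51 ± 0.29 SE, edgeR adjusted p = 0.0117). Sh3pxd2a, a scaffold of podosomes, went from 6.27 and 5.87 CPM to 1.33 and 2.84 CPM (log2 change -1.56 ± 0.31 SE, edgeR adjusted p = 0.0168). Mn1 (log2 change -1.66), Lrfn3 (-1.96) and Lgalsl (-1.48) completed the group with Nr1d1. Over those fits the adjusted p of the other 10 genes reached values between 0.162 (Elk3) and 0.653 (Lgalsl).

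**Figure D2:**
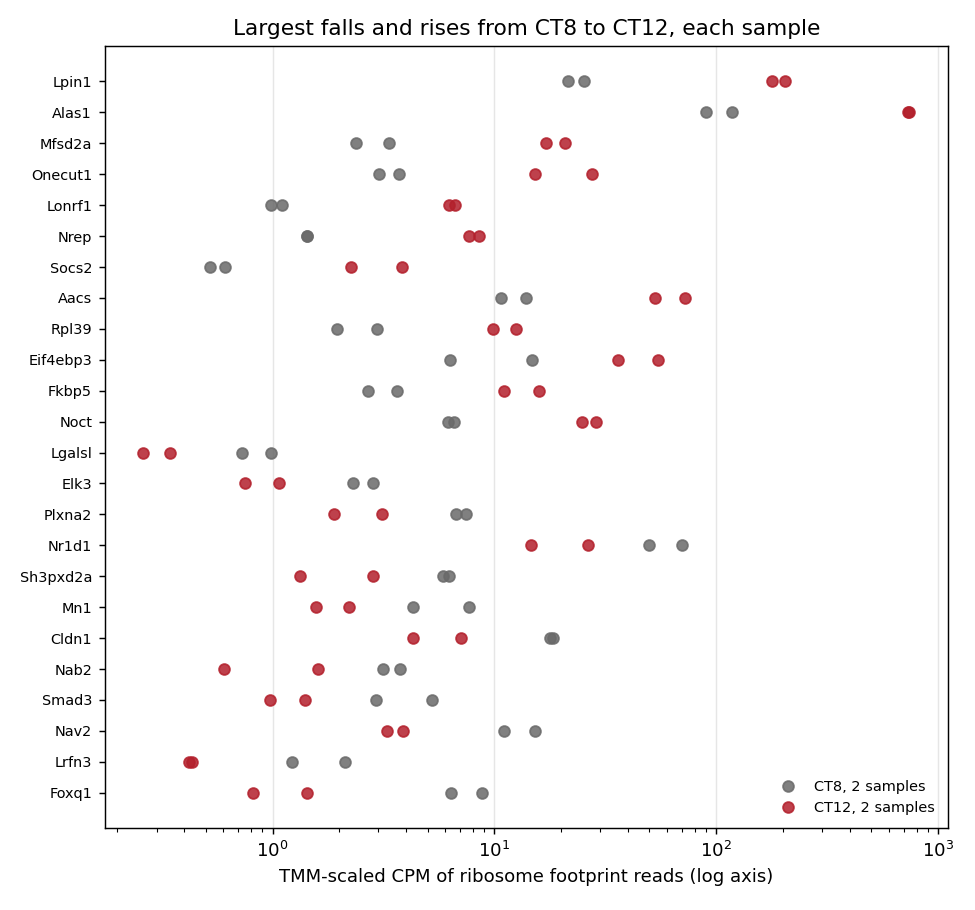
TMM-scaled CPM (horizontal axis, logarithmic) of the 12 genes with the largest rise and the 12 with the largest fall, with a point for each of the 2 samples at CT8 (grey) and at CT12 (red). No gene shown has overlapping times, Lpin1 moved farthest upward (from 21.4 and 25.3 CPM to 204.6 and 177.4 CPM), and Foxq1 moved farthest downward.

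Clock genes moved in both directions in this step, and 5 of 19 passed, against 1.68% of all genes in either direction. Among the 5 activators, Clock (chr5:76209868-76305603) fell from 6.15 and 6.67 CPM to 3.60 and 2.68 CPM (log2 change -1.02 ± 0.22 SE, edgeR adjusted p = 0.0215). Npas2, a partner of BMAL1 in place of CLOCK (chr1:39193702-39363240), had 0.175 and 0.206 CPM at CT8 and 0 and 0 CPM at CT12, that is no read in either CT12 sample, and was at least 4.27-fold lower when 3 counts per library are taken as the floor (edgeR adjusted p = 0.0232). Arntl, the gene of BMAL1, was low at both times with 0.463 and 1.33 CPM at CT8 and 0.568 and 0.296 CPM at CT12 (edgeR adjusted p = 0.369), and had fallen from CT4 to CT8 (log2 change -3.00, edgeR adjusted p = 0.000182). Rora had 8.32 and 8.54 CPM at CT8 and 6.99 and 6.75 CPM at CT12 and did not pass (edgeR adjusted p = 0.728).

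Of the 10 repressors, Nr1d1, the gene of REV-ERB alpha (chr11:98767932-98775377), fell from 69.8 and 49.6 CPM to 14.6 and 26.3 CPM (log2 change -1.55 ± 0.34 SE, edgeR adjusted p = 0.0271). Its relative Nr1d2 had 17.5 and 12.1 CPM at CT8 and 14.7 and 17.2 CPM at CT12 and did not pass (edgeR adjusted p = 0.97). Per1 (chr11:69095108-69109965) rose from 4.23 and 2.48 CPM to 9.53 and 12.9 CPM (log2 change 1.73 ± 0.40 SE, edgeR adjusted p = 0.0333), and its counts were identical to those of another transcript of the file. Per2 had 4.34 and 4.82 CPM at CT8 and 7.50 and 8.78 CPM at CT12, Per3 had 2.01 and 1.74 CPM at CT8 and 4.97 and 3.65 CPM at CT12 and Ciart had 2.74 and 1.53 CPM at CT8 and 8.37 and 6.11 CPM at CT12. These 3 lay higher in both CT12 samples and did not pass (edgeR adjusted p = 0.299, 0.166 and 0.234). Cry1 (3.35 and 2.17 CPM at CT8 and 2.63 and 2.82 CPM at CT12) and Cry2 (8.74 and 6.69 CPM at CT8 and 8.43 and 8.45 CPM at CT12) had log2 changes of -0.03 and 0.13. Bhlhe40 had 33.8 and 24.9 CPM at CT8 and 39.8 and 44.9 CPM at CT12 (edgeR adjusted p = 0.402), and Bhlhe41 overlapped between the times with 6.57 and 2.67 CPM at CT8 and 1.44 and 3.91 CPM at CT12.

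The PAR bZIP activators and their antagonist Nfil3 stayed under the threshold, with 0 of 4 passing in edgeR or DESeq2 and 1 at an unadjusted p under 0.05. Dbp had 51.4 and 27.7 CPM at CT8 and 36.2 and 52.5 CPM at CT12, so that its times overlapped. Tef had 15.6 and 10.6 CPM at CT8 and 21.2 and 19.1 CPM at CT12 (edgeR adjusted p = 0.279), Hlf had 8.91 and 8.40 CPM at CT8 and 7.26 and 8.09 CPM at CT12 and Nfil3 had 1.15 and 3.40 CPM at CT8 and 2.78 and 4.09 CPM at CT12. From CT4 to CT8, which shares the CT8 samples, Dbp had risen by 6.03 on the log2 scale (edgeR adjusted p = 7.55e-07) and Tef by 2.11 (edgeR adjusted p = 8.82e-05). Of the 10 repressors, 7 passed from CT4 to CT8 and 2 from CT8 to CT12, where 0.635% and 1.68% of all genes passed. The difference between the steps was not tested. Clock and Per1 no longer passed with any 1 of the 4 samples left out, and Nr1d1 with any but CT12 replicate 2. Over the other fits the edgeR or DESeq2 adjusted p reached 0.223 for Clock, 0.299 for Per1, 0.293 for Nr1d1 and 0.42 for Npas2.

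**Figure D3:**
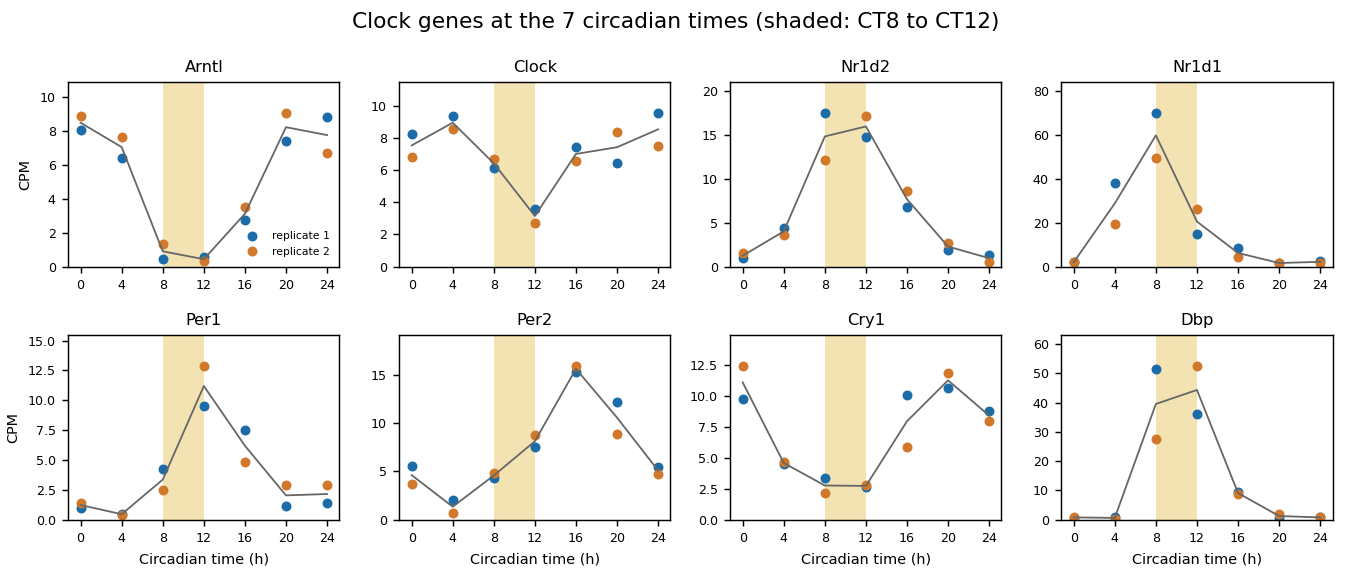
TMM-scaled CPM of 8 clock genes (vertical axes from 0) against circadian time in h, with points for replicate 1 and replicate 2, lines for the mean and the step from CT8 to CT12 shaded. In the shaded step Nr1d1 and Clock fell and Per1 rose, while Arntl, Nr1d2, Per2, Cry1 and Dbp did not pass the test.

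Among genes known as outputs of the clock in liver, 7 of 12 (58.3%, against 1.11% of all genes) rose and none fell, with a median log2 change of 1.17. Noct, a circadian phosphatase of NADPH related to deadenylases (chr3:51224447-51251654), had 6.20 and 6.55 CPM at CT8 and 24.9 and 28.6 CPM at CT12 (log2 change 2.07 ± 0.23 SE, edgeR adjusted p = 0.000195), and Usp2, a deubiquitinase, had 15.1 and 8.32 CPM at CT8 and 33.2 and 31.8 CPM at CT12 (log2 change 1.47 ± 0.23 SE, edgeR adjusted p = 0.00305). Nampt, the rate-limiting enzyme of NAD salvage, rose from 9.81 and 15.2 CPM to 42.5 and 36.6 CPM (log2 change 1.66 ± 0.20 SE, edgeR adjusted p = 0.000289). Por, the reductase that supplies cytochrome P450 enzymes with electrons, had 129 and 123 CPM at CT8 and 308 and 277 CPM at CT12 (edgeR adjusted p = 0.0032), and Gys2, liver glycogen synthase, had 123 and 93.8 CPM at CT8 and 185 and 186 CPM at CT12 (edgeR adjusted p = 0.0211). From CT4 to CT8, which shares the CT8 samples, 7 of the 12 passed, against 0.635% of all genes. Usp2 and Noct had already risen there, by 5.60 (edgeR adjusted p = 5.61e-08) and 3.12 (5.99e-06) on the log2 scale. Gys2 and Por had risen by 1.06 (0.00274) and 0.926 (0.0307), whereas Nampt had changed by 0.54 and did not pass (0.514). Scaling by total count gave 4 genes of the list higher in the step from CT8 to CT12.

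CACGTG, the E-box that BMAL1 with CLOCK binds (a palindrome, so both strands are covered), was searched in the 250 bases before each RefSeq start (GRCm38.p6). It was present for 14 of 96 genes that rose and have an entry (14.6%), 6 of 52 that fell (11.5%) and 939 of 9394 tested genes (10%), and in 6.02% of all 32851 promoters of the table. None of the 6 clock output genes that rose and have an entry held these letters in this window. The matches of 4 named genes that rose are shown with 10 bases on each side and the E-box in capitals, since Per1 is a textbook target and Fkbp5, Dusp1 and Onecut1 are described beside it.
Per1: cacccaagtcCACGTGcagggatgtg
Onecut1: gcgtcccgtgCACGTGctcactgatc
Dusp1: accgcccggtCACGTGtctgccattc
Fkbp5: aagggccagaCACGTGggcagcggtg
The matches begin 166, 232, 126 and 169 bases before an annotated start. Their windows lie at chr11:69098773-69098798 (Per1, plus strand), chr9:74861679-74861704 (Onecut1, plus strand), chr17:26508583-26508608 (Dusp1, minus strand) and chr17:28486303-28486328 (Fkbp5, minus strand). That of Per1 lies inside the gene interval given above, before a start farther downstream. Of the named genes, Eef2, which rose, also had a match, as did Ciart, Cry1, Tef, Bhlhe41, Cdk4 and Calr, which did not pass. A match describes the letters only.

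Of the glucocorticoid response genes, a part rose. Of 17 measured, 6 (35.3%, against 1.11% of all genes) rose and none fell, with a median log2 change of 1.17. Against the CT8 mean, on the scale log2(CPM + 0.5), the median of the list was 1.45 in CT12 replicate 1 and 0.55 in CT12 replicate 2. Besides Lpin1 and Per1 these were Fkbp5, a cochaperone that restrains the glucocorticoid receptor (2.70 and 3.64 CPM at CT8 and 15.9 and 11.0 CPM at CT12, log2 change 2.09 ± 0.33 SE, edgeR adjusted p = 0.00276), Zbtb16, a zinc finger repressor (0.863 and 2.20 CPM at CT8 and 5.91 and 6.40 CPM at CT12, edgeR adjusted p = 0.0321), Dusp1, a phosphatase of MAP kinases (1.54 and 1.74 CPM at CT8 and 5.84 and 4.02 CPM at CT12, edgeR adjusted p = 0.016), and Sds, serine dehydratase of gluconeogenesis (103 and 113 CPM at CT8 and 296 and 189.6 CPM at CT12, edgeR adjusted p = 0.0234). Tsc22d3 (log2 change 1.23), Mt1 (1.58) and Mt2 (1.76) did not pass, nor did Sgk1 (0.14), Klf9 (-0.28) or the receptor Nr3c1 itself (-0.06). Per1 is also a clock gene and Lpin1 a lipid gene. Zbtb16, Dusp1 and Sds each passed in 13 of the 17 other fits, with adjusted p up to 0.361, 0.17 and 0.287. The number that passed was 1 without CT8 replicate 1, 3 without CT8 replicate 2, 2 without CT12 replicate 1 and 3 with scaling by total count. Of 10 immediate early genes, Dusp1 alone passed.

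In each lipid list 1 or 2 members passed, where 1.11% of all genes rose and 0.575% fell. In bile acid synthesis and transport, 1 of 11 (9.09%) rose: Cyp7a1, the rate-limiting enzyme of bile acid synthesis (chr4:6265612-6275632), had 22.6 and 36.8 CPM at CT8 and 139 and 89.5 CPM at CT12 (log2 change 1.95 ± 0.27 SE, edgeR adjusted p = 0.000921). In fatty acid synthesis, 2 of 15 (13.3%) rose and none fell: Thrsp, the lipogenic Spot14 protein, had 49.0 and 56.0 CPM at CT8 and 261 and 134 CPM at CT12 (log2 change 1.91 ± 0.34 SE, edgeR adjusted p = 0.00752) and Elovl6, a fatty acid elongase, had 7.22 and 7.97 CPM at CT8 and 17.7 and 14.6 CPM at CT12 (log2 change 1.09 ± 0.24 SE, edgeR adjusted p = 0.028). Fasn and Scd1, synthase and desaturase of the same pathway, had log2 changes of 0.17 each and did not pass. In cholesterol synthesis and uptake, 2 of 25 (8%) fell, none rose and 21 had a negative change (median -0.25). The summed level of the list overlapped between the times, with 758 and 991 CPM at CT8 and 768 and 675 CPM at CT12. Hmgcs1, which makes HMG-CoA, went from 33.2 and 71.9 CPM to 24.7 and 19.3 CPM (log2 change -1.25 ± 0.27 SE, edgeR adjusted p = 0.0248), and Insig2, which holds the SREBP processing complex in the ER, went from 32.3 and 30.0 CPM to 9.21 and 15.8 CPM (log2 change -1.32 ± 0.31 SE, edgeR adjusted p = 0.0399). Without CT8 replicate 2 the log2 change of Hmgcs1 was -0.59 (edgeR adjusted p = 0.408), and without CT12 replicate 1 Insig2 did not pass (edgeR adjusted p = 0.37). In fatty acid oxidation and ketogenesis, 1 of 20 (5%) passed, the lipid droplet coat protein Plin2 (159 and 131 CPM at CT8 and 67.6 and 96.2 CPM at CT12, edgeR adjusted p = 0.0453), which fell and passed in 9 of the 17 other fits. Thrsp and Elovl6 passed in 14 and 13 of them.

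In carbohydrate and nitrogen metabolism 1 or 2 members of each list rose and none fell, beside 1.11% and 0.575% of all genes. Of 13 glucose and glycogen genes 2 rose (15.4%). Gys2 and Ppp1r3b, a subunit that directs phosphatase to glycogen, were these (Ppp1r3b had 13.9 and 16.3 CPM at CT8 and 36.7 and 23.3 CPM at CT12, edgeR adjusted p = 0.0418), and the median log2 change was 0.62. Over the 17 other fits, Ppp1r3b passed in 9 (adjusted p up to 0.451) and Gys2 in 13 (up to 0.524). G6pc, the last enzyme of glucose output, had a log2 change of 1.13 and an edgeR adjusted p of 0.0522. Of 11 genes of NAD metabolism 2 rose (18.2%), Nampt and Nmrk1, the kinase of nicotinamide riboside (Nmrk1 had 2.15 and 2.75 CPM at CT8 and 9.59 and 7.88 CPM at CT12, log2 change 1.84 ± 0.27 SE, edgeR adjusted p = 0.00174). Of 16 amino acid and urea cycle enzymes Sds alone rose, of 12 genes of insulin, growth hormone and feeding signals Socs2 alone, and of 18 xenobiotic genes Por and Alas1. Hspa8, the constitutive cytosolic HSC70, was the 1 of 21 heat shock chaperones that rose (49.1 and 48.9 CPM at CT8 and 113 and 103 CPM at CT12, log2 change 1.14 ± 0.23 SE, edgeR adjusted p = 0.0169).

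**Figure D4:**
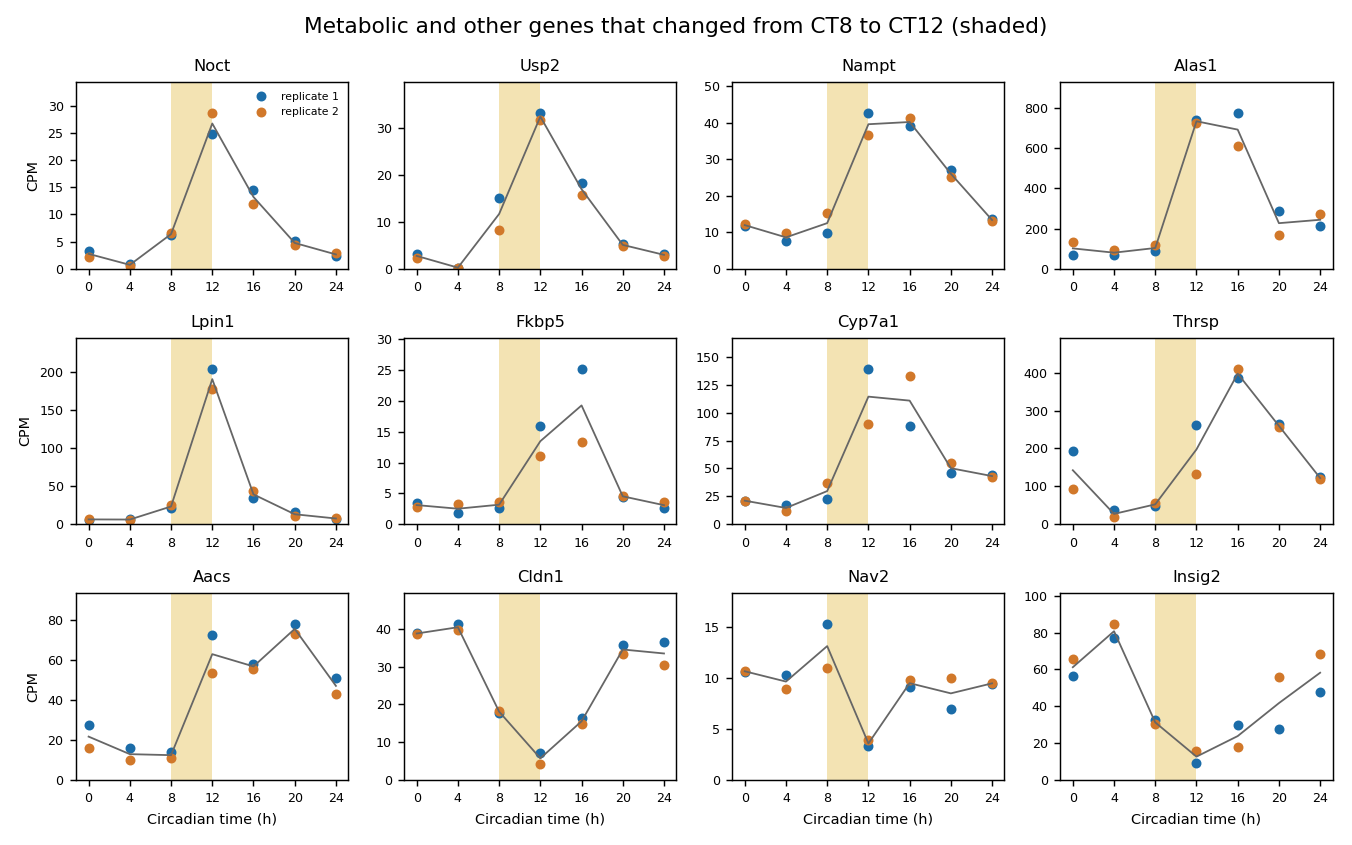
TMM-scaled CPM of 12 genes that passed the test (vertical axes from 0) against circadian time in h, with points for replicate 1 and replicate 2, lines for the mean and the step from CT8 to CT12 shaded. Lpin1 and Noct had their highest mean at CT12 and Thrsp at CT16, and Cldn1, Nav2 and Insig2 had their lowest mean at CT12.

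Besides the PAR bZIP list, no member passed by edgeR in 5 other lists. These were the cold-inducible and splicing factors (0 of 11, none by DESeq2, 0 at an unadjusted p under 0.05), the ER chaperones and unfolded protein response (0 of 21, none by DESeq2, 3 at an unadjusted p under 0.05), the cell cycle and growth arrest genes (0 of 12, none by DESeq2, 1 unadjusted), the polyamine genes (0 of 8, none by DESeq2, 2 unadjusted) and the plasma proteins (0 of 22, 1 by DESeq2, 2 unadjusted). Of their most counted members, Hspa5, the ER chaperone BiP, had 278 and 489 CPM at CT8 and 340.2 and 533 CPM at CT12, and albumin (Alb) had 25844 and 28606 CPM at CT8 and 34432 and 24729 CPM at CT12. The times overlapped for both.

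**Figure D5:**
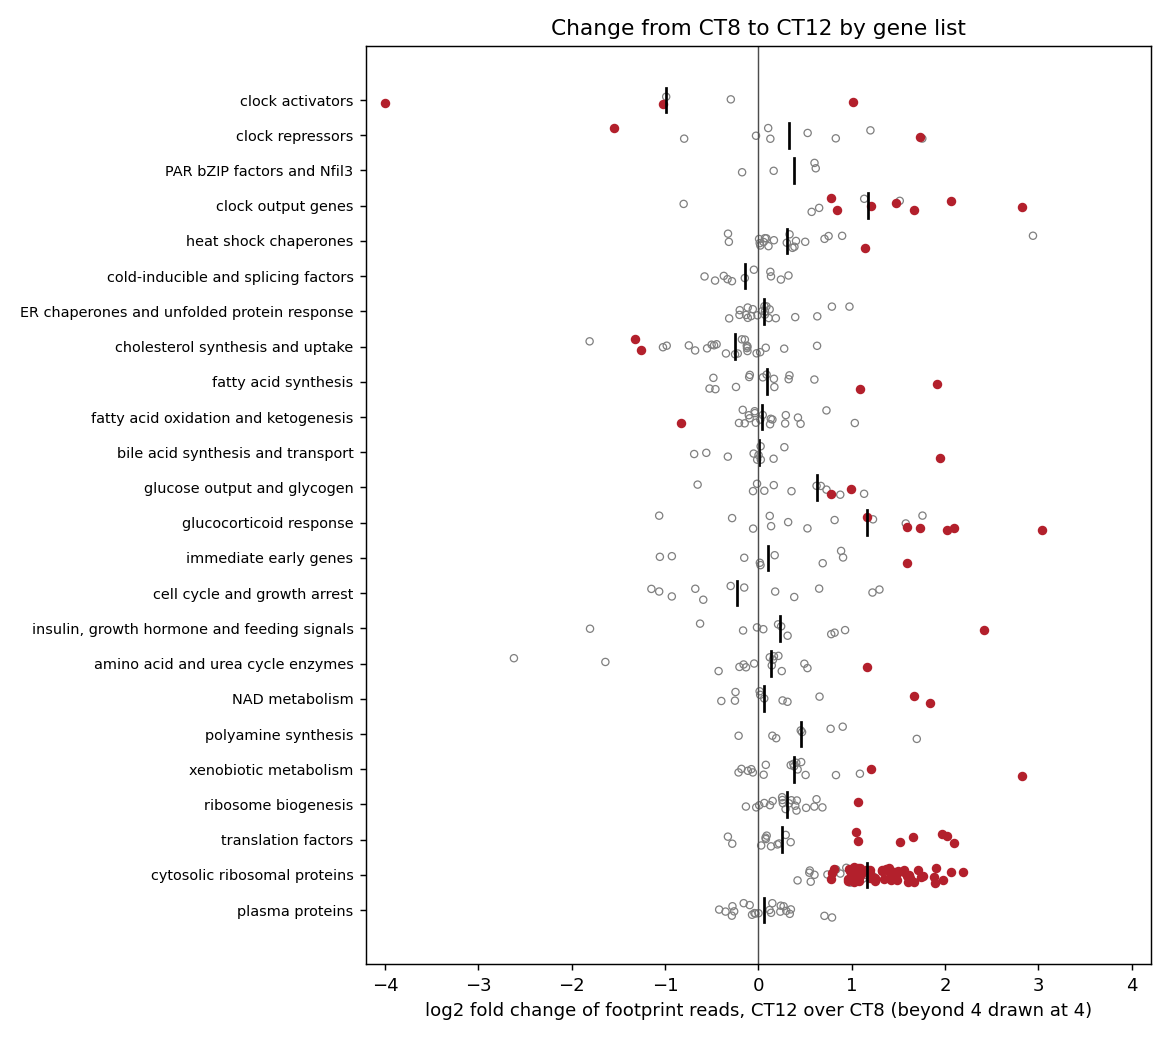
Log2 fold change of footprint reads from CT8 to CT12 (horizontal axis, values beyond 4 drawn at 4) for each measured gene of 24 lists, with filled red points for genes past an adjusted p of 0.05, open points for the others and a black bar at the median of the list. Ribosomal proteins lie to the right (58 of 77 passed, median 1.16), the clock output and glucocorticoid lists have medians of 1.17, and the medians of the other lists lie between -0.99 and 0.62.

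Over the day, of the 129 genes that rose from CT8 to CT12, 58 had their highest mean at CT12 and 60 at CT16, and 69 had their lowest mean at CT4 and 47 at CT8. Of the 67 that fell, 62 had their lowest mean at CT12, and their highest means were spread over CT0 (18), CT4 (23) and CT8 (15). Since these genes were chosen by the step itself, the counts are a description. Of the named rises, Lpin1 fell from CT12 to CT16 by 2.28 (edgeR adjusted p = 1.33e-05) and Noct by 1.02 (0.0305) on the log2 scale, while Hspa8 rose by a further 1.15 (0.0199) and Ppp1r3b by 1.21 (0.0177). Of the named falls, Nav2 was higher at CT16 by 1.42 (0.00213), Cldn1 by 1.45 (0.00109), Lgalsl by 2.56 (0.000504), Lrfn3 by 2.65 (0.00437), Sh3pxd2a by 1.46 (0.0252) and Clock by 1.15 (0.0137). Nr1d1 fell by a further 1.72 (0.0201), and the other named falls did not pass from CT12 to CT16. In all, 74 of 11655 genes (0.635%) passed from CT4 to CT8 and 150 (1.29%) from CT12 to CT16. These steps share the CT8 or CT12 samples with the step described here.

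The distribution of reads between 5′UTR and CDS was tested with limma in 7640 transcripts whose 5′UTR and CDS each averaged 10 or more counts, as the log2 ratio of both. The median change was -0.11, with median log2 ratios of -3.08 and -3.34 at CT8 and -3.51 and -3.16 at CT12, so that the times overlapped. One transcript (0.0131%) passed, that of Nagk, an N-acetylglucosamine kinase, with 22 and 10 reads in the 5′UTR at CT8 and 0 in both CT12 samples, beside 201 and 154 CDS reads at CT8 and 209 and 193 at CT12 (limma adjusted p = 0.0184). The next, Ugt2b34, Plekhf2, Pde4b and Tasp1, also had no 5′UTR read at CT12 and limma adjusted p from 0.0566 to 0.0569. An unadjusted p under 0.05 was seen for 359 transcripts. In simulated ratios this test recovered 47 of 200 transcripts raised 8-fold, so a low count of calls does not show that few ratios changed. The count was 0 with any 1 of CT8 replicate 1, CT8 replicate 2 or CT12 replicate 1 left out and 507 without CT12 replicate 2, which leaves CT12 replicate 1, the sample with the low 5′UTR share, as the single CT12 sample.

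The step 12 h later, from CT20 to CT24, was used as a contrast that shares no sample with this one. In that step 0 of 17299 transcripts passed. The change from CT8 to CT12 differed from it in 89 of 17299 transcripts (0.514%, edgeR interaction test), with 59 more positive and 30 more negative. Per gene these were 59 of 11655 (0.506%). Among them were all 7 clock output genes that rose, 3 of the 6 glucocorticoid response genes, 3 translation factors and 7 ribosomal proteins. Genes that rose were chosen by the change from CT8 to CT12, which is part of this difference, so such overlap is partly built in. Without CT20 replicate 2, the sample with 3770 CPM of acinar markers, the count was 175, and without CT20 replicate 1, CT24 replicate 1 or CT24 replicate 2 it was 59, 19 or 39. It was 36 without CT8 replicate 1, 37 without CT8 replicate 2, 25 without CT12 replicate 1 and 281 without CT12 replicate 2.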

How the data were processed

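Ribosome-protected fragments from liver were sequenced at 7 circadian times, and the authors aligned the reads to mm10 with Bowtie2 2.1.0.0 and SAMtools 0.1.19.0, per the submitters' processing notes. The deposited values are raw read counts per RefSeq transcript in 5′UTR, CDS and 3′UTR, and the deposited region lengths (other, in nucleotides) gave no test value. Per the methods, reads from rRNA were removed, and exact matches with a single place in the genome were counted. How a read at a place covered by several transcripts was assigned is not given in the sources used here. Nav2 was called lower in more than 1 transcript with the same counts, 1224 and 696 at CT8 and 265 and 222 at CT12. Counts of transcripts can therefore repeat 1 gene. The 3 counts were added, those averaging 10 or more counts over 14 samples were kept, and a quasi-likelihood model with 1 coefficient per time was fitted in edgeR 4.0.16 (R 4.3.3) after TMM scaling, with Benjamini-Hochberg adjustment over all transcripts and an SE derived from the F statistic. The depth was 40593197 to 90458783 counts per sample. The 5′UTR to CDS ratio was tested with limma 3.58.1 after adding 0.5 to each count. DESeq2 1.42.0 was an alternative.

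A gene stands for its transcript with the highest mean count. Named genes were the 12 largest rises and falls (mean of at least 100 counts, samples not overlapping), all clock genes, up to 6 called members of each other list, or 3 with the highest counts where none was called, and up to 8 leading ratios. A few members that did not pass are given by value only. Some named genes are not reported here. The members and lists were chosen with earlier results of these data known. Replicate numbers were checked by the correlation of deviations, which showed no clear pairing. Nothing beyond the labels shows separate handling of mice, so p-values measure the spread between these samples. In simulated counts for the step, edgeR recovered 18 of 50 transcripts raised 2-fold and 43 of 50 raised 4-fold, and 16 of 50 lowered to 0.5 and 33 of 50 lowered to 0.25 of their level, with 6 false calls among 17299. Alternatives were other scalings, filters, regions, sample sets and each sample left out.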

Additional observations from a re-analysis of the deposited data

Results flagged for a closer look

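The change from CT8 to CT12 differed from the change 12 h later, from CT20 to CT24, in 89 transcripts by edgeR's test of the difference of both changes. The values below are that difference on the log2 scale, positive where the step from CT8 to CT12 was the more upward one, followed by the edgeR adjusted p. Among the largest rises and falls these were Lpin1 (3.83, 9.5e-07), Alas1 (2.72, 0.00493), Lonrf1 (2.90, 0.0079), Nrep (2.77, 0.0317), Aacs (3.04, 0.000772), Eif4ebp3 (3.12, 0.0119), Fkbp5 (2.64, 0.015) and Noct (2.91, 0.000425), and, with negative differences, Nav2 (-2.04, 0.00487), Cldn1 (-1.62, 0.015) and Plxna2 (-2.02, 0.0324).

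Among clock and clock output genes they were Npas2 (-7.70, 0.0324), Per3 (2.78, 0.0377), Nampt (2.63, 0.000255), Usp2 (2.25, 0.0064), Por (1.74, 0.00791) and Gys2 (1.35, 0.0144). The value of Npas2 rests on 0 counts in both CT12 samples and is no bound, and Per3 differed although its own step did not pass. Metabolic and signalling genes were Thrsp (3.00, 0.00844), Elovl6 (1.75, 0.032), Cyp7a1 (2.17, 0.0144), Dusp1 (2.70, 0.0097) and Nmrk1 (2.75, 0.00397). Genes of the translation machinery were Eef2 (1.55, 0.032), Eef1a1 (1.83, 0.0409), Rpl37a (1.55, 0.0452), Rps21 (1.42, 0.0396), Rps18 (1.79, 0.0396) and Rps4x (1.34, 0.0442). The CT24 samples carry 2 different times in their labels, and the step from CT20 to CT24 is read by their titles. In that step 0 of 17299 transcripts passed.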

How the results depend on the processing

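Scaling moved the median of all transcripts by at most 0.04. The count of transcripts changed from CT8 to CT12 was 85 (64 higher, 21 lower) with scaling by total count, 166 (110 and 56) when the model was refitted on 11736 transcripts, 1 per gene, 184 (147 and 37) with only the CT8 and CT12 samples, and 515 (290 and 225) with DESeq2. With 1 sample left out it ran from 54 to 548 (43 to 214 higher and 11 to 334 lower), and the lone sample of a time is then assumed to vary like the others. Total count scaling gave 22 ribosomal proteins, 4 clock output genes and 3 glucocorticoid response genes higher. Leaving out 1 sample gave 9 to 62 ribosomal proteins, 4 to 7 translation factors and 1 to 7 glucocorticoid response genes. The difference from the step CT20 to CT24 was called in 21 transcripts with total count scaling and 19 to 281 with 1 sample left out. The 5′UTR to CDS ratio was called in 8 transcripts with a pseudocount of 0.1, 0 with a pseudocount of 1, 0 with a minimum of 20 counts, 4 with 1 transcript per gene, 0 with the 4 samples alone and 0 to 507 with 1 sample left out. The cause of these shifts was not tested.

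With the replicate number as a block, 317 transcripts were called (199 higher, 118 lower), 149 differed from the step CT20 to CT24 and 3 ratios passed, and none of the 85 named genes changed its call. Deviations of same-numbered CT8 and CT12 samples correlated at -0.01 across transcripts, with -0.06 to 0.19 over all 21 pairs of times. These correlations showed no clear pairing by number. The acinar marker sum was higher in replicate 2 at each time but CT16, and the Mup share at each time but CT20, which was not tested.

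Direction turned with 1 sample left out for 11 named genes, none of which had passed. Their log2 changes then ran from -0.29 to 0.33 for Cry1, -0.044 to 0.34 for Cry2, -0.13 to 0.39 for Nr1d2, -0.21 to 0.68 for Dbp, -0.17 to 0.66 for Hspa5, -0.32 to 0.27 for Hsp90b1, -0.74 to 0.27 for Ccnd1, -0.26 to 0.52 for Cdk4, -0.29 to 0.81 for Oaz1, -0.14 to 0.34 for Alb and -0.29 to 0.14 for Apoe.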
